A study of Mus musculus with 58 samples.

Results

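The PEA3 factors and the feedback inhibitors of ERK signalling were followed in sorted mouse microglia that lack the lysosomal enzyme Sgsh. The 10 genes were chosen by name, as members of 4 families: the PEA3 transcription factors Etv1, Etv4 and Etv5, the Sprouty inhibitors Spry1, Spry2 and Spry4, the Spred inhibitors Spred1 and Spred2, and the phosphatases Dusp4 and Dusp6. The choice had no threshold on a measured value, but the set was proposed with earlier results of these data known, and which values prompted it is not recorded. The adjusted p-values below therefore describe these genes and are not independent support for them. All 10 were listed among the 24940 genes of the age series, 6 among the 10277 genes of the WT antisense libraries, and 7 among the 10589 genes of the SgshKO antisense libraries. Etv4, Spry2, Spry4 and Dusp4 were not analysed in the WT antisense libraries, nor Spry2, Spry4 and Dusp4 in the SgshKO antisense libraries.

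The cells were CD11b+, CD45low, CX3CR1+ microglia sorted from forebrains of C57BL/6 mice, wild type (WT) or SgshKO, and their polyA RNA was sequenced. SgshKO mice lack sulfamidase, which removes sulfate groups during the breakdown of heparan sulfate in the lysosome; the labels do not say how the allele was made, and Sgsh reads remained in SgshKO. In the age series they gave 14.8 to 34.5 CPM in SgshKO against 20.1 to 59.4 CPM in WT, and in the ASO sets, which are separate count tables, 23.5 to 43.3 CPM against 62.6 to 81.8 CPM. The age series held 3 WT and 4 SgshKO libraries at 3 weeks, 2 and 2 at 4 months, and 4 and 7 at 8 months. In another set, WT mice had received PBS, a control antisense oligonucleotide (ASO, ntc in the labels) or 1 ASO directed at Mitf, at Tfeb or at Tfe3 (4 libraries each). In the last set, SgshKO mice had received ntc or the Mitf and Tfe3 ASOs together (8 libraries each). Mitf, Tfeb and Tfe3 are related transcription factors of lysosomal genes. ASO libraries came from cells taken 14 days after 1 injection into the ventricles; the ages of those mice, the sexes, and whether libraries of a group came from separate animals are not given. Total counts per library ran from 8191508 to 27106584 for the age series, from 14372015 to 30378870 for the WT ASO libraries and from 12517838 to 30431437 for the SgshKO ASO libraries. P-values are from edgeR's quasi-likelihood test with Benjamini-Hochberg adjustment over all genes, called at an adjusted p under 0.05, and measure the spread between these libraries, which may be partly technical.

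Growth factors bind receptor tyrosine kinases, often with heparan sulfate as a cofactor, and signal through Ras, Raf and MEK to the kinase ERK. ERK activity raises transcription of the PEA3 factors, of the Sprouty and Spred proteins, which restrain Ras and Raf, and of Dusp6 and Dusp4, which dephosphorylate ERK, so these transcripts are widely used as a read-out of the pathway. Microglia depend on such a receptor, Csf1r. The PEA3 factors bind DNA through an ETS domain, and the repressor Capicua restrains their transcription in many cell types until ERK inactivates it.

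The PEA3 transcripts are close relatives, and their sequences are shown for how far they differ where they are most alike. Whether reads of 1 were credited to another was not tested. The 90 coding bases with the most identity among them, within the part that encodes the ETS domain, are printed from GENCODE M21 transcripts (GRCm38), with the bases that differ among the 3 genes in capitals. They lie in the exons between chr12:38861362-38865610 (+ strand) for Etv1, chr11:101770528-101770995 (- strand) for Etv4 and chr16:22383629-22386783 (- strand) for Etv5.
Etv1: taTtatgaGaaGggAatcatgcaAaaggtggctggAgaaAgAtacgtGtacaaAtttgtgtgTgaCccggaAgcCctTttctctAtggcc
Etv4: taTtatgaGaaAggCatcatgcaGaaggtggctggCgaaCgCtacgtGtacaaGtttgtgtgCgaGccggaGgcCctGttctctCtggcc
Etv5: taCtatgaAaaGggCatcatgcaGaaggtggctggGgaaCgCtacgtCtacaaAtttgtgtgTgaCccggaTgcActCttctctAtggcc
All 3 genes shared 74 of the 90 bases, and the pairs shared 78 (Etv1 and Etv4), 79 (Etv1 and Etv5) and 78 (Etv4 and Etv5). Over the whole transcripts, the longest identical run was 18 bases for Etv1 and Etv4 and 23 bases for Etv5 with either of the others. The read length is not given in the sources used here.

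The members were expressed over a wide range. In the authors' TPM, which is scaled to transcript length and so allows genes to be compared, Dusp6 was the most abundant member, with group means from 381 to 504.5 TPM over the 6 groups of the age series. Etv5 followed at 32.9 to 80.1 TPM and Spred1 at 30.5 to 63.1 TPM, and these ranges overlapped. Spry1 lay at 16.1 to 28.6 TPM, Spred2 at 8.64 to 13.9 TPM and Etv1 at 3.60 to 13.1 TPM. Etv4 had group means of 0.382 to 0.511 TPM in WT and of 2.80 to 8.96 TPM in SgshKO. Spry2, Dusp4 and Spry4 were at the limit of detection, with group means of at most 1.81, 1.05 and 0.103 TPM. Values below are CPM: counts scaled to a common library total through each library's TMM-adjusted size. They compare 1 gene between libraries.

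Libraries differed in markers of other cells, and their part in the members' values was not tested. Microglial markers (P2ry12, Tmem119, Cx3cr1, Sall1 and Siglech) were all detected in the age series, with sums of 15630 to 23340 CPM in WT and 9822 to 19500 CPM in SgshKO. Of these 5 genes, 2 were lower in SgshKO at 3 weeks, and all 5 at 4 months and at 8 months. Markers of monocytes and neutrophils (7 genes) summed to 5.75 to 14.3 CPM in WT at every age. In SgshKO they summed to 6.51 to 33.7 CPM at 3 weeks, to 2791 and 13820 CPM at 4 months and to 407.1 to 5373 CPM at 8 months. At 3 weeks those sums overlapped between genotypes and none of the 7 genes was called. Border macrophage markers (6 genes, of which Cd209f had no count) had higher sums in SgshKO at each age, without overlap. WT and SgshKO sums were 54.6 to 75.4 and 81.0 to 106 CPM at 3 weeks. They were 9.22 to 10.1 and 67.1 to 119.8 CPM at 4 months, and 15.5 to 31.8 and 54.5 to 104.5 CPM at 8 months. Of 5 tested, 0, 1 and 4 were called higher at these ages and 0 lower. Astrocyte markers summed to 153.2 to 402.8 CPM in WT and 147.1 to 298.3 CPM in SgshKO. Of 7 tested, 1 was higher and 0 lower in SgshKO at 3 weeks, 2 and 0 at 4 months, and 4 and 1 at 8 months. Oligodendrocyte markers summed to 66.8 to 101.7 CPM and neuronal ones to 1.30 to 6.48 CPM over all libraries. Of 7 oligodendrocyte genes tested, 0, 1 and 4 were higher in SgshKO at 3 weeks, 4 months and 8 months, and 0 lower. At 8 months their sums overlapped, with 72.8 to 88.0 CPM in WT and 80.1 to 101.7 CPM in SgshKO. Endothelial sums were 16.1 to 38.1 CPM in SgshKO against 46.6 to 71.8 CPM in WT, with Cldn5 at 0 in every SgshKO library. Of 3 endothelial genes tested, 0 were higher and 1 lower at 3 weeks and at 4 months, and 1 was higher and 2 lower at 8 months. Over all genes, 5.31% were called higher and 3.72% lower at 3 weeks, 10.3% and 9.26% at 4 months, and 21.6% and 18.9% at 8 months. T cell markers reached at most 0.604 CPM. In bulk RNA, fewer cells of a type and less RNA per cell cannot be told apart.

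Etv4, the PEA3 factor that WT microglia hardly expressed, was higher in SgshKO at every age. It lies at chr11:101769748-101785310 on the minus strand (mm10). At 3 weeks the WT libraries held 0.561, 1.14 and 0.335 CPM (8, 19 and 6 counts), and the SgshKO libraries 5.13, 3.85, 5.71 and 2.85 CPM (39 to 108 counts). Values at 4 months were 0.355 and 1.15 CPM in WT against 9.78 and 11.3 CPM in SgshKO. Among 8-month libraries, WT held 0.208, 0.291, 0.755 and 0.973 CPM, and SgshKO ran from 10.5 to 23.0 CPM with a median of 13.6. No SgshKO library overlapped a WT library of its age, and the lowest SgshKO value of the series lay above the highest WT value. The log2 fold change was 2.67 (SE 0.44, adjusted p = 0.000140) at 3 weeks, 3.69 (SE 0.57, adjusted p = 4.42e-05) at 4 months and 4.74 (SE 0.39, adjusted p = 5.70e-10) at 8 months, corresponding to 6.38-fold, 12.9-fold and 26.8-fold. With so few WT counts the fold is imprecise: without 1 library at a time it ran from 2.34 to 3.29 at 3 weeks, from 3.20 to 4.88 at 4 months and from 4.50 to 5.01 at 8 months on the log2 scale.

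Etv1 was lower in SgshKO. It lies at chr12:38780082-38868215 on the plus strand. At 8 months the WT libraries held 28.8, 35.8, 28.2 and 40.4 CPM, and the 7 SgshKO libraries ran from 9.78 to 14.6 CPM with a median of 10.9. The groups did not overlap, and the log2 fold change was -1.52 (SE 0.16, adjusted p = 2.76e-08), or 2.88-fold lower. At 4 months WT had 25.4 and 17.5 CPM and SgshKO 13.8 and 6.45 CPM, again with no overlap; on the log2 scale the difference was -1.10 (SE 0.28, adjusted p = 0.00604). Single libraries decided that call, which gave -0.80 (adjusted p = 0.115) once WT replicate 1 was left out and -0.68 (adjusted p = 0.14) once SgshKO replicate 2 was. The 3-week values were 31.1, 25.5 and 29.4 CPM in WT against 22.4, 17.9, 16.5 and 18.5 CPM in SgshKO. They did not overlap either, but the difference of -0.60 (SE 0.20) missed the threshold with an adjusted p of 0.0533, and it passed under 10 of 31 alternative settings (adjusted p of 0.0147 to 0.0485 there). Among those were DESeq2 (adjusted p = 0.0261) and fits without SgshKO 3-week replicate 1, SgshKO 4-month replicate 1 or 2, WT 8-month replicate 4 or SgshKO 8-month replicate 2.

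Etv5, the most abundant PEA3 factor, was lower in SgshKO at 8 months. It lies at chr16:22381313-22439570 on the minus strand. SgshKO libraries at 8 months ran from 92.2 to 159.6 CPM (median 140.6) and WT libraries held 144.3, 173.1, 200.7 and 177.7 CPM, so the groups overlapped. The log2 fold change of -0.40 (SE 0.12, adjusted p = 0.00820) passed the test, and fell short of it once a term for the sex-linked transcripts Ddx3y and Xist was added (-0.30, adjusted p = 0.0564). Etv5 was not called at 3 weeks, where WT averaged 197.8 ± 29.6 CPM (SD, n = 3) and SgshKO 161.1 ± 17.1 (n = 4) with overlap (-0.30, adjusted p = 0.262). The 4-month means were 105.3 ± 10.5 and 85.1 ± 2.0 CPM (n = 2 each), without overlap and also not called (-0.31, adjusted p = 0.298). Of the 3 genes of this family, Etv4 was thus called higher at all 3 ages, Etv1 lower at 4 and 8 months, and Etv5 lower at 8 months.

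**Figure D1:**
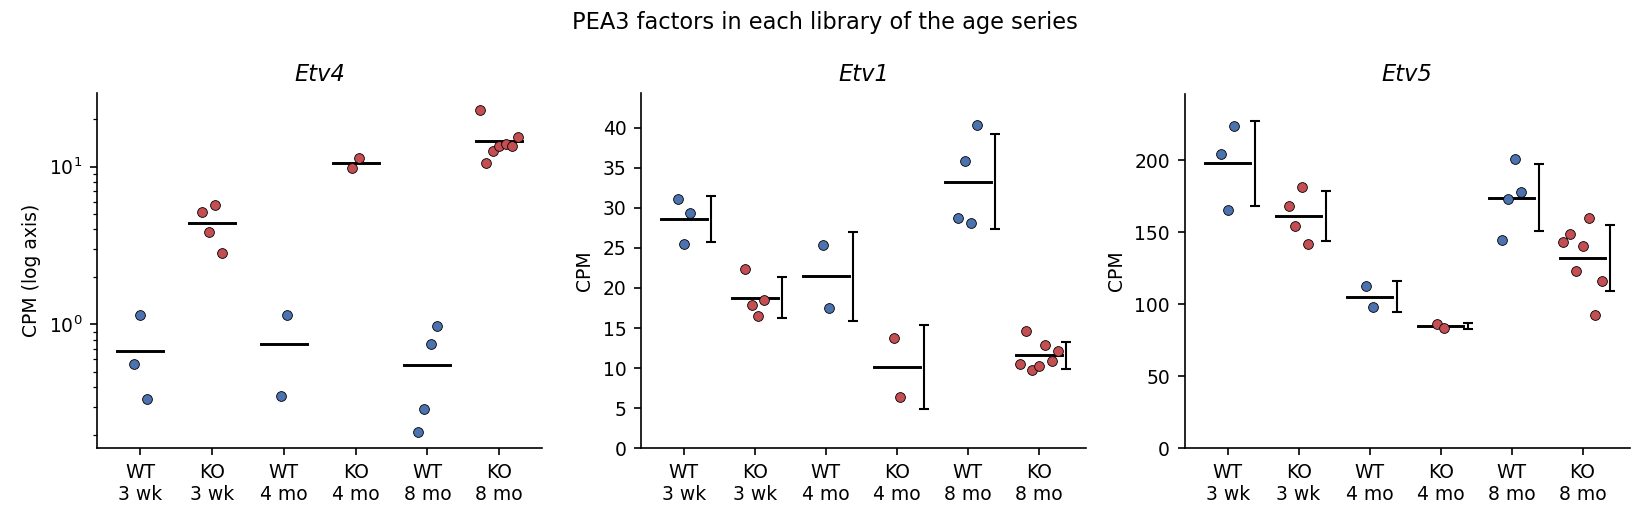
Etv4 (log axis), Etv1 and Etv5 in CPM for each library of the age series, WT in blue and SgshKO (KO) in red. Lines mark group means and bars the SD (not drawn for Etv4); Etv4 in SgshKO sits at 2.85 to 23.0 CPM, above the WT range of 0.208 to 1.15 CPM, and Etv1 in SgshKO sits below WT at each age.

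Among the Spred proteins, which hold Raf back at the membrane, Spred1 was lower in SgshKO at 3 weeks and 8 months. It lies at chr2:117121071-117182277 on the plus strand. The 3-week WT libraries held 278.9, 236.9 and 259.1 CPM and the SgshKO libraries 200.1, 184.4, 202.2 and 167.6 CPM. At 8 months WT had 178.2, 173.3, 201.1 and 201.3 CPM, and SgshKO ran from 103 to 170.7 CPM with a median of 140.1. Neither pair of groups overlapped. The log2 fold change was -0.45 (SE 0.14, adjusted p = 0.0489) at 3 weeks and -0.48 (SE 0.12, adjusted p = 0.00200) at 8 months. The 3-week call lay at the threshold and was lost without any 1 of 13 libraries, with log2 fold changes of -0.51 to -0.39 and adjusted p of 0.0506 to 0.202; these included each of the 7 libraries of that age, SgshKO 4-month replicate 2, WT 8-month replicates 1, 2 and 3, and SgshKO 8-month replicates 1 and 4.

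At 4 months Spred1 was 166.7 and 128.9 CPM in WT and 143.3 and 119.9 CPM in SgshKO. These values overlapped (log2 fold change -0.17, SE 0.19, adjusted p = 0.608). Spred2, the less abundant paralog, had no called difference. Its group means were 23.3 ± 4.0 CPM (SD, n = 3) and 18.2 ± 4.0 (n = 4) at 3 weeks, 17.5 ± 2.7 and 16.8 ± 0.074 (n = 2 each) at 4 months, and 25.5 ± 5.4 (n = 4) and 23.8 ± 3.9 (n = 7) at 8 months, WT first. The corresponding log2 fold changes were -0.36 (SE 0.19), -0.05 (SE 0.26) and -0.11 (SE 0.16).

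Spry1, the only Sprouty gene with more than 1 TPM in every library group, had no called genotype difference, and 1 library stood apart. It lies at chr3:37639947-37644599 on the plus strand. At 3 weeks WT held 25.7, 32.8 and 33.7 CPM and SgshKO 69.9, 26.9, 33.8 and 44.2 CPM. The highest of these, SgshKO replicate 1, was the highest of all 22 libraries. At 4 months WT had 37.3 and 43.7 CPM and SgshKO 25.3 and 23.9 CPM, with no overlap. The 8-month libraries overlapped, with 33.5 to 42.0 CPM (median 35.3) in WT and 26.5 to 37.6 CPM (median 33.0) in SgshKO. The log2 fold changes were 0.51 (SE 0.21, adjusted p = 0.161) at 3 weeks, -0.72 (SE 0.28, adjusted p = 0.0768) at 4 months and -0.22 (SE 0.17, adjusted p = 0.336) at 8 months. Without SgshKO 3-week replicate 2 the first passed (0.69, adjusted p = 0.0265). The 4-month difference passed without SgshKO 3-week replicate 1 (-0.72, adjusted p = 0.0165) or replicate 2 (-0.72, adjusted p = 0.0391), and with no filter on low counts (-0.71, adjusted p = 0.0366).

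The other Sprouty genes were close to 0. Spry2 had 2, 5 and 2 counts in WT and 8, 1, 0 and 0 in SgshKO at 3 weeks, 13 and 9 against 16 and 37 at 4 months, and 0 to 3 against 0 to 15 at 8 months. Most of its counts thus came from the 4-month libraries of both genotypes, and no difference between genotypes passed. Spry4 had no count in the 4 SgshKO libraries at 3 weeks, which allows at most 0.0454 CPM (3 counts over the group, counting error only), and 0 to 15 counts per library elsewhere. It failed the filter on low counts and was not tested.

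Dusp6, a cytoplasmic phosphatase specific for ERK, was abundant and did not separate the genotypes. It lies at chr10:99263231-99267489 on the plus strand. Its 3-week values were 706.9, 1085 and 916.1 CPM in WT and 1215, 745.4, 710.8 and 1138 CPM in SgshKO, so SgshKO held both the highest value and values near the lowest. At 4 months WT had 756 and 811.9 CPM and SgshKO 809.1 and 636.6 CPM. At 8 months WT ran from 658.6 to 982.9 CPM (median 921.6) and SgshKO from 619.9 to 889.5 CPM (median 777.5). All 3 pairs of groups overlapped, and the log2 fold changes were 0.08 (SE 0.18), -0.12 (SE 0.23) and -0.18 (SE 0.14), with adjusted p of 0.896, 0.779 and 0.349. Dusp4, a nuclear phosphatase of ERK, had 0 to 26 counts per library and no called difference.

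**Figure D2:**
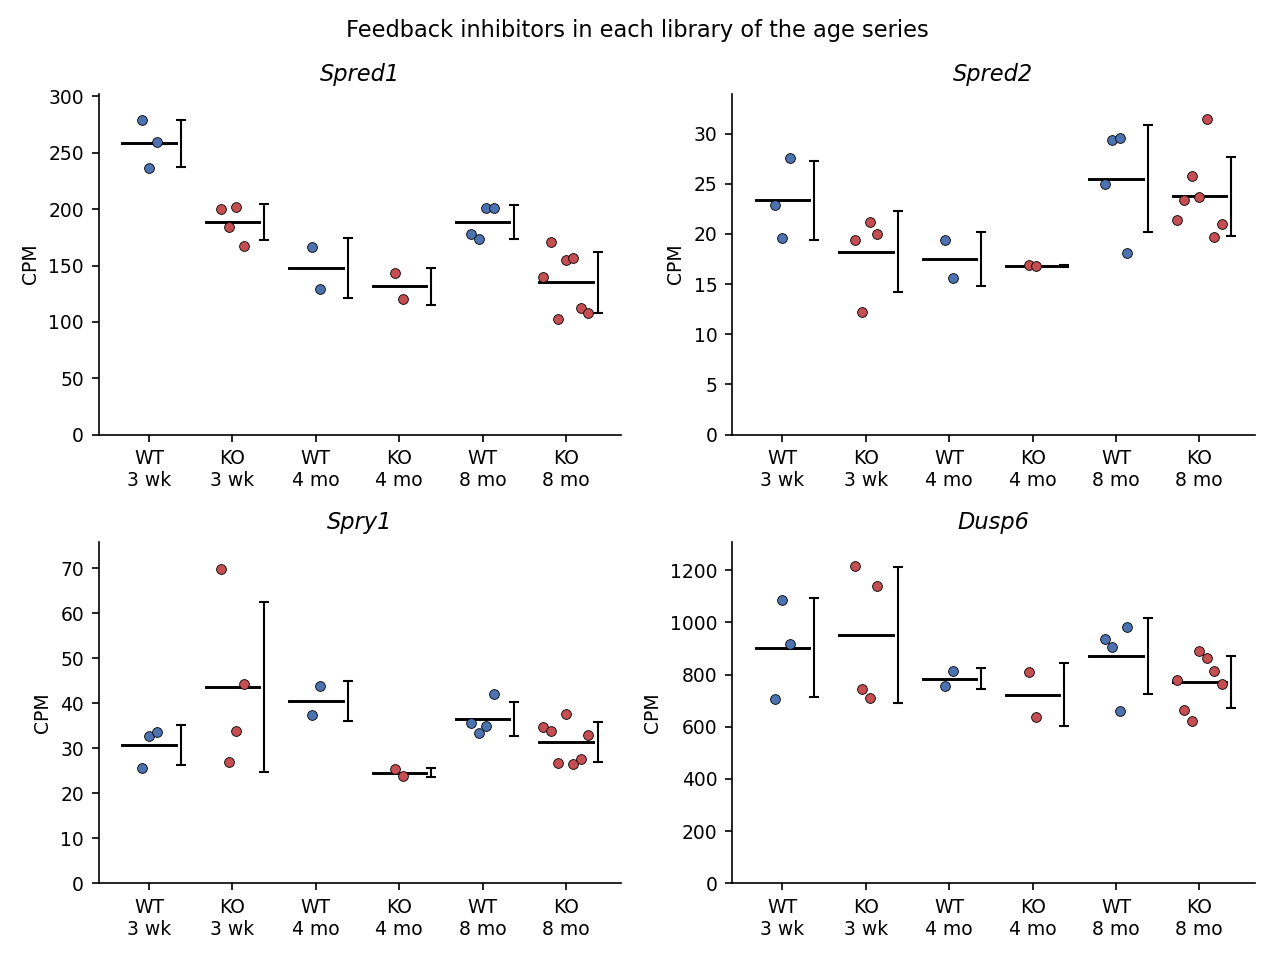
Spred1, Spred2, Spry1 and Dusp6 in CPM for each library of the age series, WT in blue and SgshKO (KO) in red, with group means (lines) and SD (bars). Spred1 in SgshKO lies below WT at 3 weeks and 8 months, whereas Spred2 and Dusp6 overlap at every age; 1 SgshKO library at 3 weeks reaches 69.9 CPM for Spry1.

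Counted over the 9 members that passed the filter on low counts, 1 was higher and 1 lower in SgshKO at 3 weeks (Etv4 and Spred1), 1 higher and 1 lower at 4 months (Etv4 and Etv1), and 1 higher and 3 lower at 8 months (Etv4, and Etv1, Etv5 and Spred1). Of all 14309 genes tested, 5.31% were called higher and 3.72% lower at 3 weeks, 10.3% and 9.26% at 4 months, and 21.6% and 18.9% at 8 months. With 9 members, a single call is 1 in 9 of them, so these counts are not a result about the set. The median log2 fold change of the members was -0.30 at 3 weeks, -0.12 at 4 months and -0.18 at 8 months, against -0.02, 0.02 and 0.02 for all genes.

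**Figure D3:**
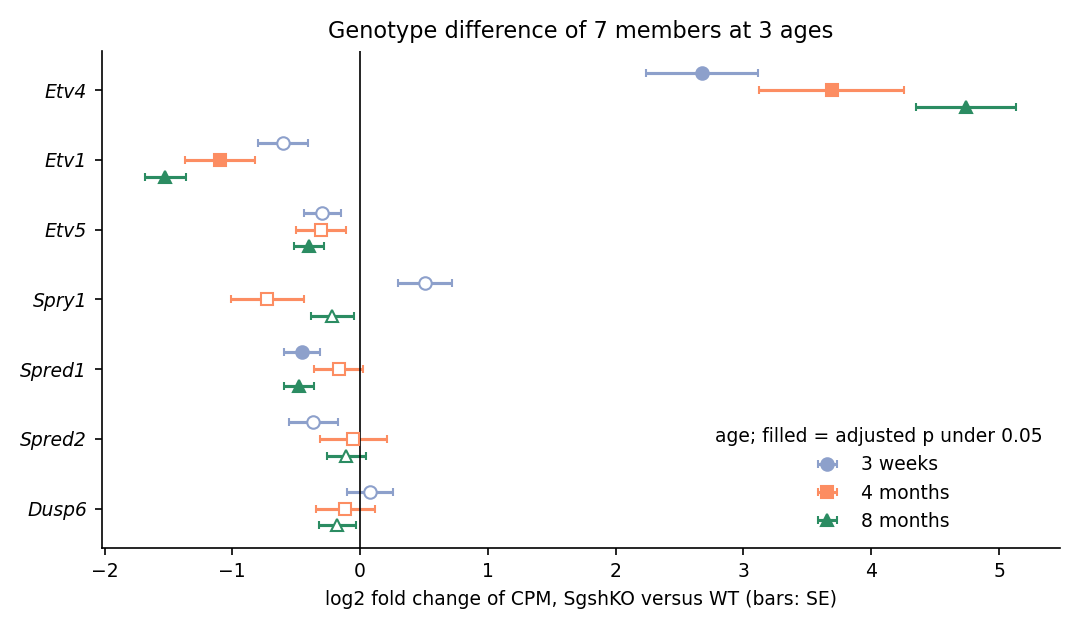
Log2 fold change of SgshKO over WT for 7 members at 3 weeks (circles), 4 months (squares) and 8 months (triangles), with SE as bars and filled symbols for adjusted p under 0.05. Etv4 lies far to the right, from 2.67 to 4.74, Etv1 moves from -0.60 to -1.52, and the feedback inhibitors stay between -0.72 and 0.51.

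Etv4 and Etv1 differed between ages in SgshKO, and edgeR called no member between ages in WT. The labels give no day of collection or sequencing, so age and handling of the age groups cannot be told apart. From 3 weeks to 8 months in SgshKO, Etv4 rose from 4.38 ± 1.28 CPM (SD, n = 4) to 14.6 ± 4.0 (n = 7), or 1.74 on the log2 scale (SE 0.31, adjusted p = 0.000116). Etv1 fell from 18.8 ± 2.5 to 11.6 ± 1.7 CPM (-0.70, SE 0.16, adjusted p = 0.00170), and neither gene overlapped between these ages. Spred1 fell from 188.6 ± 16.1 to 135.1 ± 27.3 CPM, with overlap (-0.48, SE 0.12, adjusted p = 0.00297). Spry1 was also called lower (-0.48, SE 0.17, adjusted p = 0.0329). Here too single libraries decided the call: it was -0.16 (adjusted p = 0.461) without SgshKO 3-week replicate 1, -0.48 (adjusted p = 0.0666) without replicate 4 of that group, and -0.46 to -0.45 (adjusted p of 0.0548 to 0.058) without SgshKO 8-month replicate 3, 5 or 6. On log2(TPM + 1) it was -0.43 (adjusted p = 0.0842).

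Dusp6 was not called over that span (-0.31, SE 0.14, adjusted p = 0.112), but passed without SgshKO 3-week replicate 2 (-0.41, adjusted p = 0.0488) or replicate 3 (-0.43, adjusted p = 0.0312), and with no filter on low counts (-0.31, adjusted p = 0.0462). The share of all genes called higher and lower with age was 15.5% and 15.1% in SgshKO, against 1 and 3 of 9 members. In WT, none of the 9 members passed edgeR's test, 1 had an unadjusted p under 0.05, and DESeq2 called 1, where 3.03% of all genes were called higher and 4.63% lower. The member nearest the threshold in WT was Spred1, which went from 258.3 ± 21.0 CPM (SD, n = 3) to 188.5 ± 14.8 (n = 4) without overlap (-0.45, SE 0.14, adjusted p = 0.0538; DESeq2 0.0258). It passed without SgshKO 8-month replicate 2, 3 or 7 (adjusted p of 0.0302 to 0.0453), and with the Ddx3y and Xist term it was -0.75 (adjusted p = 0.0221). Its WT and SgshKO changes with age were thus -0.45 and -0.48, and the test of their difference gave -0.03 (SE 0.19, adjusted p = 0.965).

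Whether the genotype difference itself grew with age was tested as an interaction. From 3 weeks to 8 months, the difference widened by 2.07 for Etv4 (SE 0.59, adjusted p = 0.0253) and changed by -0.92 for Etv1 (SE 0.25, adjusted p = 0.0222) on the log2 scale. Both calls depended on single WT libraries. Without WT 3-week replicate 2, Etv4 gave 1.44 (adjusted p = 0.228) and Etv1 -0.85 (adjusted p = 0.0707). Etv4 also gave 1.83 (adjusted p = 0.0525) without WT 8-month replicate 1 and 1.82 (adjusted p = 0.0612) without replicate 2. The interaction of Etv5 was -0.10 (SE 0.19, adjusted p = 0.815). Spry1 had -0.73 (SE 0.27, adjusted p = 0.0989), and passed without SgshKO 3-week replicate 2 (-0.91, adjusted p = 0.0204) or with no filter on low counts (-0.73, adjusted p = 0.0360). In this comparison 5.98% of all genes had a more positive and 3.26% a more negative difference, against 1 of 9 members each.

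From 3 weeks to 4 months no member's interaction passed edgeR's test, 1 had an unadjusted p under 0.05, and DESeq2 called 1; 1.63% and 0.895% of all genes were called. That member was Spry1, whose genotype difference turned from 0.51 to -0.72 (interaction -1.24, SE 0.35, adjusted p = 0.0598; DESeq2 0.0237). It passed without SgshKO 3-week replicate 2 (-1.41, adjusted p = 0.0193) or replicate 3 (-1.34, adjusted p = 0.047), and with no filter on low counts (-1.23, adjusted p = 0.01). From 4 to 8 months, 0 members were called by edgeR or DESeq2, 0 had an unadjusted p under 0.05, and 0.259% and 0.133% of all genes were called.

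Spry1 and Dusp6 varied together within groups. After subtraction of group means, their log2 CPM had a Pearson r of 0.663 over the 22 libraries, given as a description since the values share library and scaling. The 14 immediate-early genes, which many stimuli induce quickly, summed to 21440, 4884, 6453 and 9938 CPM in SgshKO 3-week replicates 1 to 4. Spry1 had 69.9, 26.9, 33.8 and 44.2 CPM and Dusp6 1215, 745.4, 710.8 and 1138 CPM in the same order, so replicates 1 and 4 were high for all 3 measures. The 4-month libraries did not follow that order. In WT they had sums of 17960 and 23510 CPM, with Dusp6 at 756 and 811.9 CPM, in the middle of its range. In SgshKO they had sums of 15530 and 13200 CPM, above every 8-month library, with Dusp6 at 809.1 and 636.6 CPM and Spry1 at 25.3 and 23.9 CPM, its lowest values of the 22 libraries. The 4 heat-shock genes known from tissue dissociation (Hspa1a, Hspa1b, Dnajb1 and Hsph1) summed to 1399 and 2114 CPM in those WT 4-month libraries and to 103.2 to 912.8 CPM in all others. The part of immediate-early transcription in these values was not tested. Etv5 and Spred1 formed another such pair (r within groups 0.75), whereas Etv1 and Etv4 were opposed across groups (r = -0.881) and had r = -0.217 within them. Over all pairs of the 9 members tested, r within groups ran from -0.384 (Etv4 and Spred2) to 0.75. Spry1 with Dusp6 and Etv5 with Spred1 were picked as the highest of these.

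**Figure D4:**
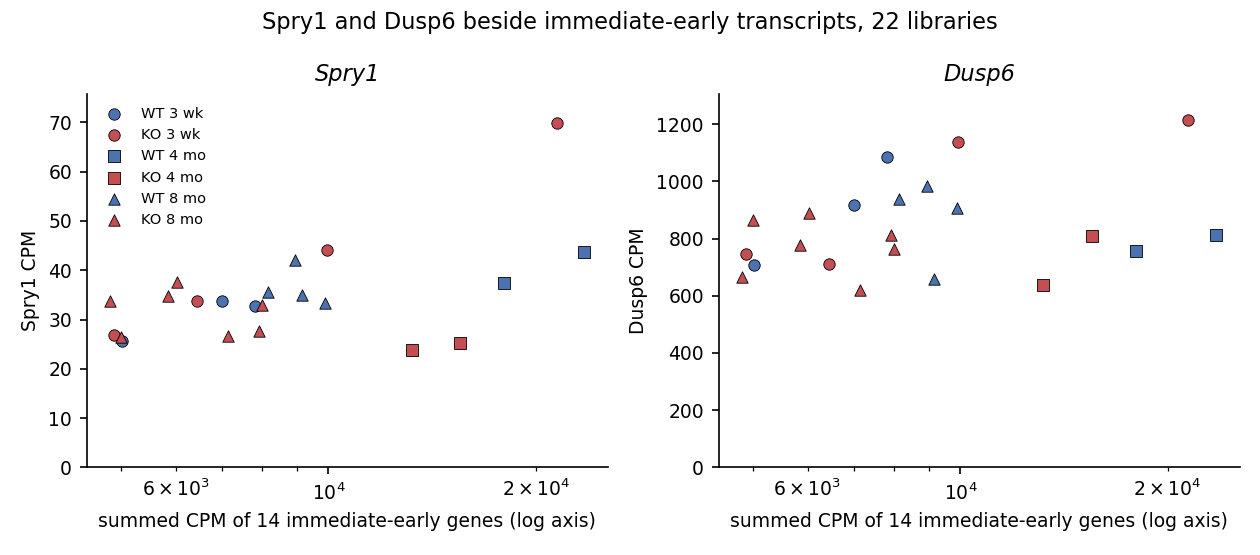
Spry1 and Dusp6 (CPM) against the summed CPM of 14 immediate-early genes (log axis) in the 22 libraries of the age series, WT in blue and SgshKO (KO) in red, with circles for 3 weeks, squares for 4 months and triangles for 8 months. The SgshKO 3-week library with a sum of 21440 CPM is highest for both genes, while the WT 4-month libraries at 17960 and 23510 CPM have Dusp6 at 756 and 811.9 CPM.

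The genes upstream of the members were taken from lists of the pathway. Over all genes, 5.31% were higher and 3.72% lower in SgshKO at 3 weeks, 10.3% and 9.26% at 4 months, and 21.6% and 18.9% at 8 months. The medians over all genes were -0.02, 0.02 and 0.02. The counts and medians of this and the other lists are set beside these values, and no list was tested as a set. Of 26 growth factor ligands and receptors tested, 6 were higher and 2 lower in SgshKO at 3 weeks, 7 and 3 at 4 months, and 11 and 3 at 8 months. Igf1, a growth factor that activates Ras and Akt, went from 1.85 to 68.7 CPM at 8 months (log2 fold change 5.13, SE 0.26, adjusted p = 7.11e-14). Vegfa, an endothelial growth factor, was higher at 3 weeks (8.24 against 2.08 CPM, adjusted p = 0.000596). Hbegf, an EGF receptor ligand that binds heparan sulfate, was lower at 8 months (-1.94, SE 0.25, adjusted p = 8.76e-07). Csf1r was lower at 4 months (-0.71, SE 0.089, adjusted p = 2.74e-06). At each age only up to 2 called genes per direction were named, so a gene named at 1 age may also have been called at another. Kit, a receptor of mast and progenitor cells, had a mean of 6.14 CPM in SgshKO and no count in WT at 4 months. Pdgfrb, a receptor of pericytes, had means of 0.345 CPM in SgshKO and 15.6 CPM in WT at 8 months. The median of the list was -0.23, 0.74 and 0.56 at the 3 ages.

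Of 10 heparan sulfate proteoglycan core proteins tested, 1 was higher and 1 lower at 3 weeks, 4 and 1 at 4 months, and 4 and 2 at 8 months. Sdc4, a transmembrane syndecan, was higher at 3 weeks (1.19, SE 0.13, adjusted p = 3.42e-07). Gpc4 and Gpc1, membrane-anchored glypicans, were higher at 8 months with log2 fold changes of 5.95 (SE 0.65) and 4.93 (SE 1.01). Agrn, a secreted proteoglycan, was lower at 3 weeks (-0.57, SE 0.11) and 8 months (-0.54, SE 0.088), and Gpc2 was lower at 4 months (-0.77, SE 0.20) and 8 months (-0.63, SE 0.12). The median of the list was -0.11 at 3 weeks and 0.73 at 8 months.

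In the cascade from receptor to ERK, of 28 genes tested, 1 was higher and 2 lower at 3 weeks, 2 and 3 at 4 months, and 6 and 8 at 8 months, with list medians of -0.04, 0.00 and 0.00. Mapk3, which encodes ERK1, was higher at 3 weeks (0.32, SE 0.094, adjusted p = 0.0306) and 4 months (0.47, SE 0.12, adjusted p = 0.00749). Map2k1, which encodes MEK1, was lower at 3 weeks (-0.28, SE 0.086, adjusted p = 0.0383). The adaptor Gab1 and the scaffold Ksr1 were lower at 8 months, by -0.48 (SE 0.12) and -0.44 (SE 0.098).

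Of 24 other brakes on Ras and ERK tested, 2 were higher and 2 lower at 3 weeks and at 4 months, and 2 and 7 at 8 months. Dusp3, another phosphatase, was higher at all 3 ages (0.80, SE 0.097; 0.94, SE 0.13; 0.87, SE 0.081), and Dok3, an adaptor that inhibits Ras, was lower at all 3 (-0.90, SE 0.14; -0.78, SE 0.19; -1.11, SE 0.11). Dusp1, an immediate-early phosphatase, was higher at 3 weeks (2.04, SE 0.54, adjusted p = 0.0158), where the immediate-early sums were uneven.

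Of the 14 immediate-early genes themselves, 4 were higher and 1 lower at 3 weeks, 0 were called at 4 months (edgeR), and 3 were higher and 3 lower at 8 months. Atf3, a stress-response factor, was higher at 8 months (1.71, SE 0.47, adjusted p = 0.00496), as was Ier3 (1.74, SE 0.35, adjusted p = 0.000331). Fosl2 (-1.59, SE 0.24, adjusted p = 1.15e-05) and Egr1 (-1.19, SE 0.35, adjusted p = 0.00764) were lower. Among 8 other ERK-responsive genes, Plaur, the urokinase receptor, was higher at all ages (1.54, 2.54 and 1.87). The cell-cycle gene Ccnd1 was lower at 3 weeks (-0.66, SE 0.13) and 8 months (-0.27, SE 0.11). Of 19 genes of the Capicua complex and other ETS factors, 1 was higher and 2 lower at 3 weeks, 1 and 3 at 4 months, and 2 and 6 at 8 months. Atxn1, a partner of Capicua, was lower at 3 weeks (-0.40, SE 0.11, adjusted p = 0.0177) and 8 months (-1.06, SE 0.088, adjusted p = 5.71e-10). Ets1, the founding ETS factor, was lower at all ages (-0.53, -0.81 and -0.87).

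Antisense lowering of the MiT factors was measured first on the targeted genes. In WT, the Mitf ASO took Mitf from 43.7 ± 6.9 to 1.58 ± 0.47 CPM (SD, n = 4), the Tfeb ASO took Tfeb from 54.9 ± 2.3 to 5.80 ± 1.02 CPM, and the Tfe3 ASO took Tfe3 from 198.0 ± 5.0 to 38.1 ± 2.7 CPM. With the Mitf ASO, 2 of 6 members were called lower and none higher, where 5.21% of all genes were lower and 5.77% higher. Spred1 had 308.8, 279.6, 237.5 and 302.6 CPM with the control ASO in the sets called grp 1 to 4, and 251.1, 231.3, 235.9 and 257.6 CPM with the Mitf ASO. Dusp6 had 779, 977.7, 921.2 and 1064 CPM with the control ASO and 691, 802.9, 887.1 and 871.6 CPM with the Mitf ASO. Both genes were lower in each of the 4 numbered sets, although Spred1 was nearly level in grp 3 (237.5 against 235.9 CPM) and the groups overlapped. How many of all genes were lower in all 4 sets was not counted. The log2 fold changes were -0.21 for Spred1 (SE 0.059, adjusted p = 0.0311) and -0.20 for Dusp6 (SE 0.059, adjusted p = 0.0352). Of the 5 microglial markers, 3 were also called lower with the Mitf ASO (list median log2 fold change -0.18), with sums of 21970 to 23610 CPM against 24120 to 27620 CPM with the control ASO. Their part in the Spred1 and Dusp6 values was not tested.

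Both calls rested on single libraries and on the grp term. They were lost without control ASO replicate 1, 2 or 4, Mitf ASO replicate 1, 2 or 3, or Tfe3 ASO replicate 2, with log2 fold changes of -0.22 to -0.16 for Spred1 (adjusted p of 0.0504 to 0.154) and of -0.22 to -0.15 for Dusp6 (adjusted p of 0.0645 to 0.192). Dusp6 was also lost without Mitf ASO replicate 4, Tfeb ASO replicate 1, or Tfe3 ASO replicate 1, 3 or 4 (adjusted p of 0.0507 to 0.0714), and on the authors' batch-corrected values (-0.18, adjusted p = 0.0506). Without the grp term the fold changes were -0.21 for Spred1 (adjusted p = 0.179) and -0.20 for Dusp6 (adjusted p = 0.539). The other members under the Mitf ASO had log2 fold changes between -0.15 (Etv1) and 0.01 (Spred2). Their control and Mitf means were 76.2 ± 11.1 and 68.8 ± 13.4 CPM for Etv1, 363.4 ± 97.2 and 344.6 ± 49.95 for Etv5, 23.2 ± 5.1 and 22.8 ± 3.8 for Spry1, and 49.2 ± 13.4 and 48.9 ± 5.9 for Spred2 (SD, n = 4 each).

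The Tfeb and Tfe3 ASOs and the control ASO itself gave no called member. With the Tfeb ASO the 6 members had log2 fold changes of -0.08 to 0.18, 1 had an unadjusted p under 0.05 and 0 were called by edgeR or DESeq2, where 0.564% of all genes were higher and 0.214% lower. That member was Etv5, at 404.2 ± 46.6 against 363.4 ± 97.2 CPM (0.18, SE 0.073, adjusted p = 0.251). With the Tfe3 ASO the range was -0.17 to 0.04, 0 members had an unadjusted p under 0.05 and 0 were called by either tool, where 1.46% and 0.701% of all genes were called. Control ASO against PBS gave -0.17 to 0.02, with 0 members at an unadjusted p under 0.05 and 0 called by either tool. There 0% of all genes were called in each direction by edgeR (0 of 10277; 415 at an unadjusted p under 0.05; DESeq2 called 2). The 3 ASO comparisons share their control libraries.

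In SgshKO, the combined Mitf and Tfe3 ASOs took Mitf from 72.4 ± 6.6 to 15.3 ± 4.7 CPM and Tfe3 from 170.4 ± 17.7 to 80.4 ± 5.2 CPM (SD, n = 8). None of the 7 members passed edgeR's test, 1 had an unadjusted p under 0.05 and DESeq2 called 0, where 4.84% of all genes were higher and 4.50% lower. Etv4 ran from 2.0 to 5.11 CPM (median 3.57) with the control ASO and from 1.59 to 3.38 CPM (median 2.73) with the combination, or -0.38 on the log2 scale (SE 0.20, adjusted p = 0.236). Etv1 ran from 43.0 to 50.2 CPM (median 45.7) and from 42.8 to 60.4 CPM (median 50.9), or 0.15 on the log2 scale (SE 0.058, adjusted p = 0.112). Both genes overlapped between the groups.

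The 2 sets of that experiment, called grp 1 and grp 2, are given apart for Etv1 and Etv4 only. In grp 2 alone, Etv1 was 43.0 to 47.5 CPM with the control and 52.5 to 60.4 CPM with the combination (0.28, SE 0.064, adjusted p = 0.0289). Etv4 was there 2.99 to 5.11 and 1.59 to 2.87 CPM (-0.72, SE 0.23, adjusted p = 0.106), and neither gene overlapped. In grp 1 alone, Etv1 gave 0.01 (SE 0.072) and Etv4 0.01 (SE 0.29), with adjusted p of 0.94 and 0.995. Over all genes, edgeR called 430 in grp 2 alone and 192 in grp 1 alone. The share of all genes without overlap in either set was not counted. The difference between the sets was not tested. Mitf with the combination was 7.51 to 14.8 CPM in grp 1 and 15.3 to 23.2 CPM in grp 2, and Tfe3 was 75.5 to 87.1 and 75.04 to 86.4 CPM.

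The remaining members had log2 fold changes of -0.13 (Spry1) to 0.09 (Spred2). Control and combination means were 323.3 ± 18.4 and 312.1 ± 16.9 CPM for Etv5, 16.9 ± 1.6 and 15.5 ± 2.3 for Spry1, 238.1 ± 14.2 and 227.4 ± 14.5 for Spred1, 40.5 ± 2.7 and 43.0 ± 5.2 for Spred2, and 662.9 ± 65.1 and 633.7 ± 58.4 for Dusp6 (SD, n = 8 each).

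**Figure D5:**
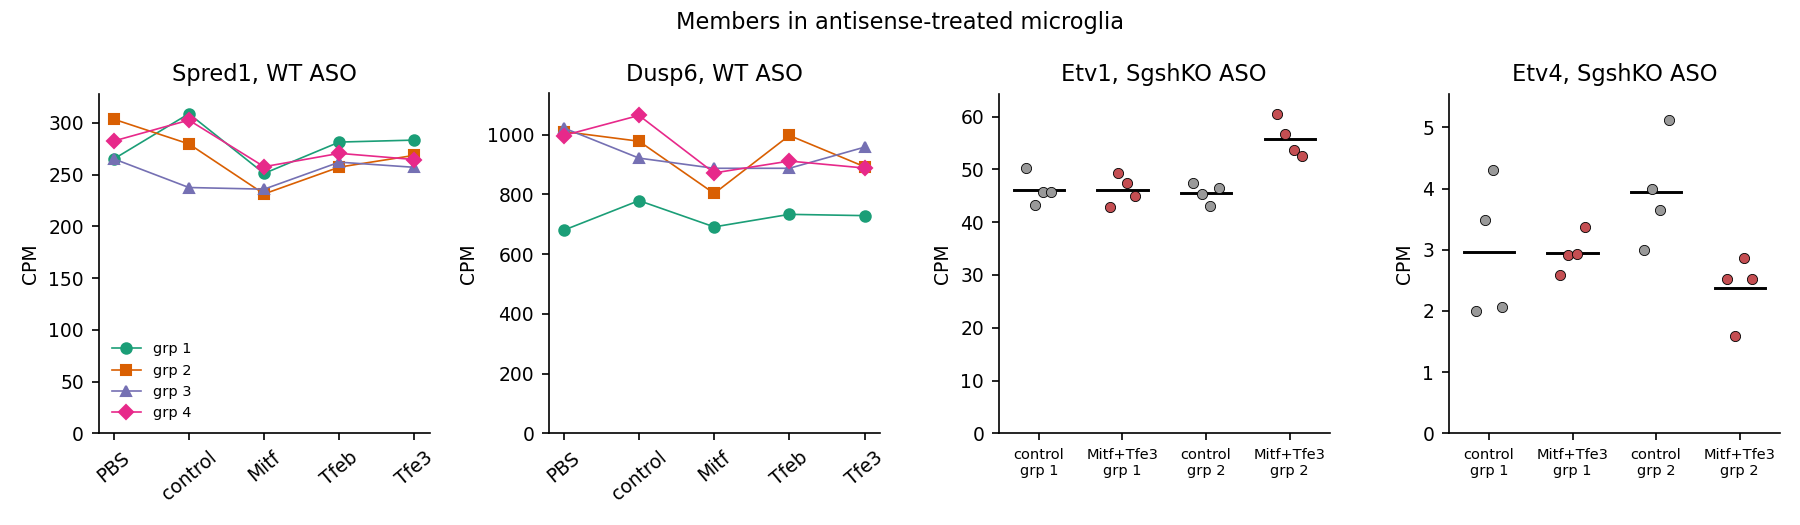
Left, Spred1 and Dusp6 (CPM) in WT microglia by treatment, with 1 line for each numbered set (grp 1 to 4); right, Etv1 and Etv4 (CPM) in SgshKO microglia with the control ASO (grey) or the Mitf and Tfe3 ASOs (red), by set, with means as lines. Spred1 and Dusp6 are lower with the Mitf ASO than with the control in all 4 sets, with Spred1 nearly level in grp 3 (235.9 against 237.5 CPM). Etv1 and Etv4 separate from their controls in grp 2 and not in grp 1.

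The pathway lists were counted in the same way. Over all genes, 5.77% were higher and 5.21% lower with the Mitf ASO, and 4.84% and 4.50% with the combination. With the Mitf ASO, 2 of 15 growth factor genes were higher, namely Csf1, a ligand of Csf1r (0.59, SE 0.15, adjusted p = 0.0180), and Vegfb (0.55, SE 0.066, adjusted p = 4.04e-05). Of 26 cascade genes 2 were higher and 4 lower, and of 18 other brakes 2 were higher and 3 lower, Dusp3 (0.29, SE 0.065) and Dok3 (-0.26, SE 0.064) among them. Of 12 immediate-early genes 1 was higher (Atf3, 0.34, SE 0.091) and 2 lower, and their sums ran from 639.8 to 941.1 CPM with the control ASO and from 561.3 to 693.9 CPM with the Mitf ASO. In SgshKO with the combination, of 16 growth factor genes 1 was higher and 2 lower. The lower ones were Igf1 (-0.43, SE 0.069, adjusted p = 0.000752) and Csf1 (-0.35, SE 0.060, adjusted p = 0.00150). Of 6 heparan sulfate proteoglycan core proteins 1 was higher and 1 lower, and of 24 cascade genes 1 was higher and 0 lower. Sdc4 (-0.46, SE 0.067, adjusted p = 0.000442), Plaur (-0.53, SE 0.077, adjusted p = 0.000452) and Dusp3 (-0.19, SE 0.042, adjusted p = 0.00768) were lower as well. Of 13 immediate-early genes, 3 were lower, including Egr2 (-0.57, SE 0.14) and Egr3 (-0.63, SE 0.16), and 0 were higher.

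Genes whose profile over the 22 age libraries was most like each member were taken from 12124 others with a mean of at least 1 CPM, by Pearson r of log2 CPM. Libraries of 1 group share genotype and age, so these r are descriptions. Etv4 was most like Anapc15 (0.973) and P3h3 (0.969), Etv1 like Ralgps1 (0.942) and Ifngr1 (0.938), and Spred1 like Galnt4 (0.935) and Pigm (0.928). Etv5 was most like Rubcnl (0.898) and Zbtb34 (0.891). Spry1 was most like Med22 (0.809) and Mat2a (0.792), and Dusp6 like Mat2a (0.769) and Rela (0.751). For Spred2 the highest were Vmac (0.692) and Oard1 (0.666).

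The 250 bases before the start site were searched on both strands for letters bound by factors of this pathway. RefSeq windows (GRCm38.p6) were matched for 7 of the 10 members, 9 windows in all. Etv4, Spry4 and Dusp4 had no window and were not searched. The motifs were TGAATGAA and TGAATGGA (Capicua), CCGGAAGT (ETS factors), CACGTG (E-box) and TCACGTG (MiT factors, which contains the E-box), present in 1.08%, 1.01%, 2.88%, 6.02% and 3.13% of 32851 such windows. None of the 9 windows held any of them, which says only that these exact letters are not there. Other spellings bound by these factors, Capicua among them, were not searched. The search says nothing of Etv4, Spry4 and Dusp4.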

How the data were processed

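PolyA RNA of sorted microglia was sequenced single end from dUTP-stranded libraries, per the labels' protocols. The authors deposited 3 tables of raw read counts per gene (age series, WT ASO, SgshKO ASO), a table of TPM values for the age series, and 2 tables of normalised, batch-corrected signal values for the ASO sets, whose correction method is not stated. The submitters' processing notes list STAR 2.5.3a, HOMER 4.11, kallisto 0.44.0, DESeq2 1.36.0 and R 4.2.3, with no role, and the build mm10.

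Counts were tested with edgeR 4.0.16 (R 4.3.3): TMM scaling, a low-count filter (filterByExpr, minimum count 10), the quasi-likelihood F test, 1 model per table, Benjamini-Hochberg adjustment over all genes tested and a threshold of 0.05. The SE is the fold change divided by the square root of F. The ASO models held the grp number of the titles, which pairs WT ASO libraries across treatments; pairs sharing it had correlations of their deviations from -0.0333 to 0.640. For PBS replicate 4 the title (grp 4) and the column name (grp 3) disagree, and the title was followed. TPM and batch-corrected values were tested with limma 3.58.1 on log2(value + 1), and TPM also on log2(TPM + 0.1), and counts also with DESeq2 1.42.0. The count test was checked on simulated counts, with few genes changed and these of all expression levels. It recovered 66%, 42.7% and 66% of 2-fold changes between genotypes at 3 weeks, 4 months and 8 months. Of 1.25-fold changes it recovered 1.02%, 1.06% and 7.14%. With the Mitf ASO the 2 shares were 94% and 33%, and with the combination 98% and 55%. A difference that was not called is therefore not shown to be absent. Sex is not given, so a term for Ddx3y minus Xist was an alternative; others were RLE factors, other filters, blocks, and leaving out each library.

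From each pathway list a comparison names up to 2 called genes per direction, by absolute fold change. The members and lists were chosen with earlier results of these data known. One gene of the microglial marker list is not reported here, and sums leave it out.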

Additional observations from a re-analysis of the deposited data

Results flagged for a closer look

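In the age series, the genotype difference of 2 members differed between 3 weeks and 8 months by the interaction test: -0.92 for Etv1 (-0.921 before rounding, adjusted p = 0.0222) and 2.07 for Etv4 (adjusted p = 0.0253) on the log2 scale (edgeR's quasi-likelihood test). Both were lost without WT 3-week replicate 2.

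Of 71 groups of a member in 1 set of libraries, 5 held a library whose gap to its nearest neighbour exceeded Dixon's critical value. Chance would give about 1 in 20 of independent groups. These groups were not independent, because members share libraries and differences between the grp numbers of the ASO libraries were not removed. Etv4 was 22.96 CPM in SgshKO 8-month replicate 1, with the next highest at 15.44 CPM. Spry2 was 0.3798 CPM (8 counts) in SgshKO 3-week replicate 1, with the next at 0.04752 CPM. Etv5 was 473.7 CPM in the grp 1 library given the Tfeb ASO, above 384.7 CPM. Dusp6 was 680 CPM in the grp 1 library given PBS, below 996.8 CPM. These 2 flags follow the numbered set. Under every treatment of the WT ASO set, grp 1 had the highest Etv5 value (411.1 to 506.1 CPM) and the lowest Dusp6 value (680 to 779 CPM). Spred2 was 32.1 CPM in grp 1 replicate 2 of the SgshKO combination, below 41.06 CPM.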

How the results depend on the processing

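Etv4 at each age, Etv1 and Spred1 at 8 months, and Etv4, Etv1 and Spred1 with age in SgshKO kept their direction and call under each alternative run; on log2(TPM + 1) the Etv4 difference at 8 months was 2.84. The number of members called at 3 weeks went from 2 to 1 with the replicate block and with both TPM pseudocounts, and ran from 1 to 3 with single libraries left out; at 4 months it ran from 1 to 3. For age in WT it went from 0 to 1 with DESeq2, no filter or the Ddx3y and Xist term (0 to 1 without single libraries). For the interaction of 4 months against 3 weeks it went from 0 to 1 with DESeq2 or no filter (0 to 1 likewise), and for 8 months against 3 weeks from 2 to 0 with the replicate block (0 to 3 likewise). For the Mitf ASO it went from 2 to 0 with no replicate block and to 1 on batch-corrected values (0 to 2 likewise), and for the combination from 0 to 1 in grp 2 alone. Uncalled values that changed sign were Dusp6 at 3 weeks (-0.047 with the replicate block, -0.0069 and -0.0070 on TPM plus 1 and plus 0.1, -0.067 to 0.23 without single libraries), Spred1 (-0.34 to 0.040) and Spred2 (-0.19 to 0.12) at 4 months without single libraries, and Etv4 with the combination in grp 1 alone (0.0056). The causes were not tested.

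Replicate numbers do not pair the age libraries (correlations of -0.171 to 0.115) or all SgshKO ASO pairs (0.0839 to 0.612). With them as a replicate block, the interactions gave 2.07 for Etv4 (adjusted p = 0.0877) and -0.93 for Etv1 (0.0604), and Spry1 with age in SgshKO -0.38 (0.181). Counts of all genes called moved by over 1.5 times in these cases. With no replicate block, the Mitf ASO gave 211 in place of 1128, Tfe3 29 in place of 222 and Tfeb 9 in place of 80. DESeq2 gave 403 for Tfe3, 213 for Tfeb and 2 in place of 0 for the control ASO, and batch-corrected values gave 145 for Tfeb and 1 for the control ASO. The combination gave 452 without the grp term, 192 in grp 1 and 430 in grp 2, in place of 988. The interaction of 8 against 4 months gave 163 with DESeq2, 131 with no filter, 86 on log2(TPM + 1) and 21 with the block, in place of 56, and that of 4 months against 3 weeks 685 with DESeq2 and 683 on log2(TPM + 1), in place of 361. Age in WT gave 463 with the Ddx3y and Xist term, in place of 1095. With PBS replicate 4 placed in grp 3, an alternative chosen after seeing the data, 2 members were called with the Mitf ASO. Few WT counts limit the Etv4 folds.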
